A study of Drosophila melanogaster with 3 samples.

Results

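Binding of the tagged Pax-family protein eyegone (eyg) was examined at promoter-flanking peaks, defined as peaks whose summit lay more than 200 bp and at most 1000 bp from the nearest protein-coding transcription start site (TSS). Peaks within 1 kb of both TSSs of a divergent gene pair were left out. Of the 2537 peaks in the authors' optimal list, 545 met this rule, a share of 21.5% (95% exact binomial interval 19.9% to 23.1%, which covers counting error only). On the upstream side of the TSS lay 382 of them, and on the downstream side, within the transcribed direction, 163. The remaining optimal peaks were 495 core promoter peaks at most 200 bp from a TSS, 567 peaks at divergent pairs and 930 distal peaks.

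The data came from chromatin immunoprecipitation and sequencing (ChIP-seq) of whole Drosophila melanogaster embryos, both sexes pooled, collected at 0 to 24 h. All samples carried a stable transgene in which GFP is fused to the C-terminal end of eyg, and an antibody against GFP was used. The labels give 3 biological replicates of this 1 group, with chromatin sonicated to 200 to 800 bp, and the control library they name was not used here. The embryos hold many cell types at many stages, so binding in few cells and weak binding in many cannot be told apart. Read counts were not among the deposited values, which leaves the sequencing depth unknown.

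A core promoter is the short stretch around the TSS where the transcription machinery assembles, and the DNA beside it often holds sites for sequence-specific factors that act on that promoter. In the fly genome, which is compact, such sites lie both before the TSS and inside the transcribed unit, where long first introns are known for regulatory elements. The protein encoded by eyg has a homeodomain and a truncated paired domain and is known for roles in the growth of the eye and in the salivary duct.

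The sequences at 8 summits are shown because the results below turn on them. The first 3 are the 2 upstream members and the downstream member of highest signal. The next is from the eyg promoter itself, and the last 4 carry a 7-letter word that led the word counts on both sides and were chosen after those counts were seen. Each is 201 bases centred on the summit, read 5′ to 3′ on the strand of the nearest gene from the RefSeq copy of dm6, with coordinates on dm6. Capitals mark any match, on either strand, to the word ACAGTGG or to one of the 12 motifs spelled out further on.
Lk6, 980 bp upstream, chr3R:11760959-11761159, minus strand: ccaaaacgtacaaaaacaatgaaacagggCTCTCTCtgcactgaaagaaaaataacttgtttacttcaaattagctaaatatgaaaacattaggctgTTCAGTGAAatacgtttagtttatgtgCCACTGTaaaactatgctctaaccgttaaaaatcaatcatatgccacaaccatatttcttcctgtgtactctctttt
ph-p, 480 bp upstream, chrX:2137235-2137435, minus strand: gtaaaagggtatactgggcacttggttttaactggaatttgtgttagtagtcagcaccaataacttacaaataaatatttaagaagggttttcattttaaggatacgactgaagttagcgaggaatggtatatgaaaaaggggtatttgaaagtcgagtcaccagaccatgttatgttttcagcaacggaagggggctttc
CG9663, 952 bp downstream, chr2L:3302078-3302278, minus strand: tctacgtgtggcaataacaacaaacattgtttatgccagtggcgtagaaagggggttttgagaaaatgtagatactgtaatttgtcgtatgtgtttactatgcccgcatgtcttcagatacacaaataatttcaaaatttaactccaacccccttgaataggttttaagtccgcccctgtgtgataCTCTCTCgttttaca
eyg, 203 bp upstream, chr3L:12468124-12468324, minus strand: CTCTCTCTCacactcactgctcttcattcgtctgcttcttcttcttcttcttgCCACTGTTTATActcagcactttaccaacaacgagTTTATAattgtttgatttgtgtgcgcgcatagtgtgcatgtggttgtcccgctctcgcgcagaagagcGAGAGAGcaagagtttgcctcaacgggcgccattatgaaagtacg
Rtnl1, 267 bp upstream, chr2L:4997548-4997748, minus strand: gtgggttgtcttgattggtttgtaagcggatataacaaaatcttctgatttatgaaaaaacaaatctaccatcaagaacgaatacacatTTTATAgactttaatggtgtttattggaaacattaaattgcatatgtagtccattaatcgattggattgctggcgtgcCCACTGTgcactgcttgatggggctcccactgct
fkh, 218 bp upstream, chr3R:28585382-28585582, minus strand: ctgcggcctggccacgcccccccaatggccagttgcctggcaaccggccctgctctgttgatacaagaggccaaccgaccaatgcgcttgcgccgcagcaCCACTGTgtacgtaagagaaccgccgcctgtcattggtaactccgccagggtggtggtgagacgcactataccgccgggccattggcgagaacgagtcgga
CG1737, 960 bp downstream, chrX:11351468-11351668, plus strand: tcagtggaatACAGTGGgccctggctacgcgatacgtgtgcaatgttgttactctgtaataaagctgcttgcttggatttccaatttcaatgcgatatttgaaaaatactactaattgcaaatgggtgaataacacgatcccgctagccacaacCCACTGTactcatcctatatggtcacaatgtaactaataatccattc
Hgsnat, 800 bp downstream, chrX:4919572-4919772, plus strand: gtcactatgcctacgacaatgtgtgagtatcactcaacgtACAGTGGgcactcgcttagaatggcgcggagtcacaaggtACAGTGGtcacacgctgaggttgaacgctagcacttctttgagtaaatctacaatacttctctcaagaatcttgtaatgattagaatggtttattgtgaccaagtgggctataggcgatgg
The window at ph-p held no match to any of these patterns. Those at CG1737 and Hgsnat held 2 copies of the word each. The eyg window held 1 copy, beside matches to the GAGA element and the TATA box.

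Peaks were concentrated on the upstream side, and the excess lay close to the TSS. Upstream peaks made up 70.1% of the members (382 of 545, exact interval 66.1% to 73.9%), whereas 44.4% of the bases that the rule would accept lay upstream (8008319 of 18032719 bases). Among the 4672 pooled candidate regions that met the same rule, 47.2% were upstream (45.7% to 48.6%). In the 2537 highest calls of each replicate list, placed by the same rule, the upstream share was 64.9%, 68.4% and 70.7% in replicates 1, 2 and 3, a mean of 68.0% ± 2.96 (SD, n = 3). All 3 values lay above the share of bases by more than the spread between replicates. Over the whole replicate lists, which per the labels hold background as well as peaks, the upstream share was 46.2% ± 2.48 (SD, n = 3).

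Per megabase of eligible sequence there were 47.7 upstream and 16.3 downstream members. Upstream, the density was 112.5 per Mb at 201 to 300 bp, 64.4 at 301 to 400 bp and 45.4 at 501 to 600 bp, and it declined to 14.5 at 901 to 1000 bp. Downstream, it stayed between 10.6 and 20.0 per Mb in every 100-bp bin, with its lowest value at 201 to 300 bp. At 801 to 900 bp the sides had nearly equal densities, 19.3 per Mb upstream and 19.9 downstream. These farthest bins hold 12 to 26 peaks each, so their counting error is large. Core promoter peaks, which the rule leaves out, were also denser upstream. Their density was 159.7 per Mb upstream and 27.4 downstream at 101 to 200 bp, and 145.4 and 64.7 at 1 to 100 bp. The upstream excess was thus not particular to the members, and the lower bound cuts through it.

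**Figure D1:**
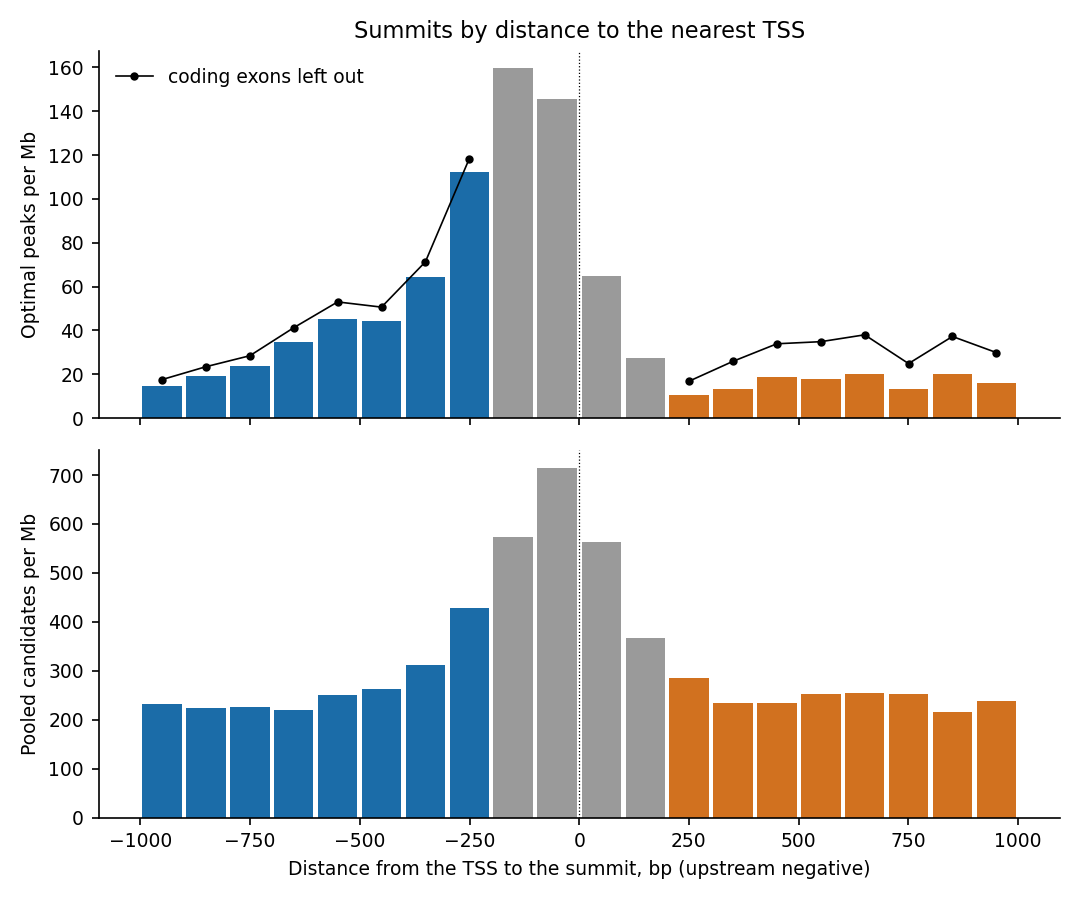
The upper plot gives optimal peaks per Mb of eligible bases in 100-bp bins of distance from the nearest TSS, with upstream members in blue (left), downstream members in orange (right) and core promoter peaks in grey, and the black points leave out coding exons. The lower plot gives pooled candidates per Mb in the same bins. Upstream density declines from 112.5 per Mb next to the core promoter to 14.5 at the far bound, whereas downstream density stays between 10.6 and 20.0.

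With the range divided at 500 bp, the upstream density was 5.24 times the downstream density in the near range (74.5 and 14.2 peaks per Mb) and 1.63 times in the far range (28.4 and 17.4 peaks per Mb). The highest calls of replicates 1, 2 and 3 gave near ratios of 3.07, 5.40 and 5.43 (mean 4.64 ± 1.35, SD, n = 3) and far ratios of 1.58, 1.40 and 1.66 (mean 1.55 ± 0.134). The near ratio was above the far ratio in each of the 3 replicates. Replicate 1 stood below the other two in the near range, with 78 downstream calls against 49 in replicate 2 and 52 in replicate 3.

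Pooled candidates reached the optimal list more often upstream. Of the upstream candidates 17.3% were in the optimal list (382 of 2204, exact interval 15.8% to 19.0%), and of the downstream candidates 6.60% (163 of 2468, 5.66% to 7.66%). The share over all 23721 pooled candidates was 10.7%. The upstream share stood near that of core promoter candidates (17.8%), and the downstream share near that of distal ones (6.81%). No candidate outside the optimal list had a signal above the lowest of its members, 108.3, so these shares are shares of candidates with a high pooled signal.

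First introns held a large part of the members on both sides, and coding exons held almost none. Upstream, 44.0% of the summits lay between genes, close to the 41.9% of eligible bases there. First introns held 35.1% of upstream summits (134 of 382, exact interval 30.3% to 40.1%) but 16.9% of the upstream bases. Downstream, they held 76.7% of summits (125 of 163, 69.4% to 82.9%) and 29.5% of the bases. Coding exons held 2 upstream and 4 downstream summits, 0.524% and 2.45% of the members, although they make up 13.5% and 47.6% of the eligible bases of the upstream and downstream side.

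The 5′ UTRs held 11 upstream members (2.88%) and 24 downstream members (14.7%, with 9.76% of bases). The 3′ UTRs held 6 upstream and 0 downstream summits, and the exact interval of the downstream share reached 2.24%. Of the upstream members, 172 (45.0%) lay in the body of the nearest gene itself, upstream of one of its internal TSSs. Another 42 lay only in the body of a different gene and 168 in no gene. Of the downstream members 159 of 163 lay in the body of the nearest gene. The word upstream therefore refers to the nearest annotated TSS, and not always to the 5′ end of the gene.

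**Figure D2:**
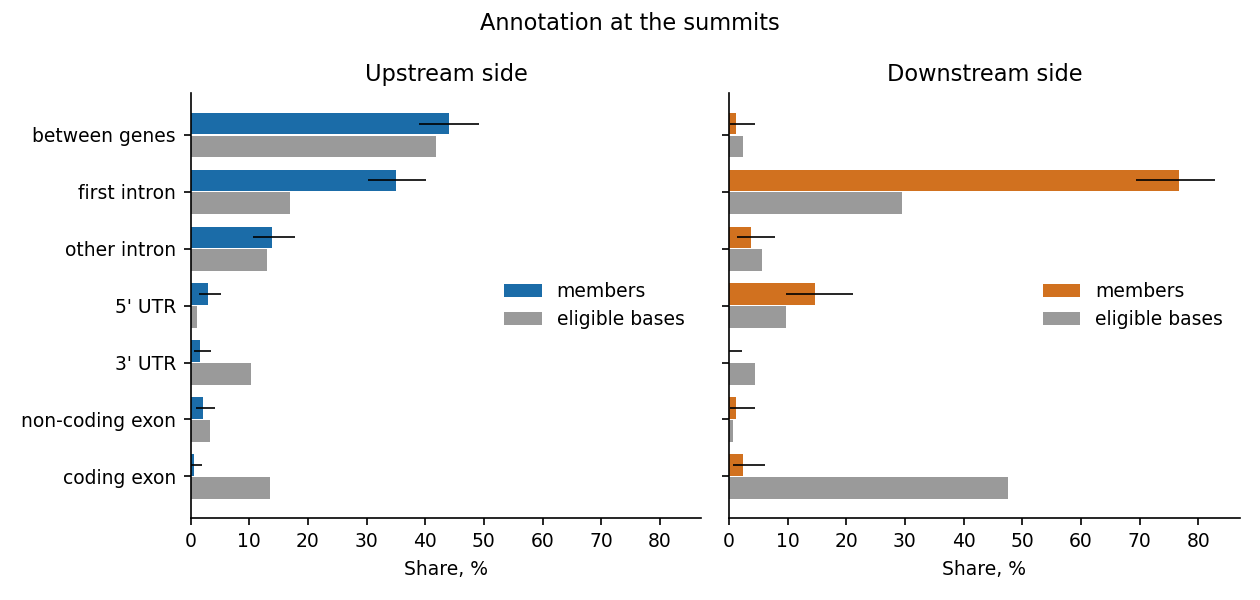
Share of summits (blue for upstream members on the left, orange for downstream members on the right, with 95% exact binomial intervals) and of eligible bases (grey) in each annotation class. First introns hold 35.1% of upstream and 76.7% of downstream summits, and coding exons hold 0.524% and 2.45%.

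The difference between sides was smaller once coding exons were left out. The densities were then 54.9 per Mb upstream and 30.2 per Mb downstream. Within first introns alone they were 99.2 per Mb upstream (134 peaks) and 42.2 per Mb downstream (125 peaks). Without coding exons, the upstream density was 118.4 per Mb at 201 to 300 bp against 16.9 downstream, and 41.3 against 38.0 at 601 to 700 bp. Beyond 800 bp the order turned, with 23.5 upstream and 37.3 downstream at 801 to 900 bp, and 17.6 and 29.9 at 901 to 1000 bp. Each of these far bins rests on 12 to 26 peaks.

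Upstream members had a slightly higher signal in every replicate. The signal is the authors' own value for each region, its scale is not stated, and medians were compared only within a list. The median was 48.9 upstream and 41.9 downstream in replicate 1, 62.2 and 56.5 in replicate 2, and 70.5 and 58.6 in replicate 3. The log2 differences, upstream minus downstream, were 0.22, 0.14 and 0.27, a mean of 0.21 ± 0.065 (SD, n = 3). An exact sign-flip permutation test over the 3 replicates gave a two-sided p of 0.25, the smallest that 3 replicates allow, and 0.312 after Benjamini-Hochberg adjustment over 5 such comparisons. This test therefore cannot pass a threshold of 0.05, whatever the size of the difference.

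Against core promoter peaks the members were higher by 0.05, 0.09 and 0.14 (log2 of the median, mean 0.09 ± 0.049, SD, n = 3). Against distal peaks they were higher by 0.12, 0.11 and 0.18 (mean 0.14 ± 0.042). Both differences had the same exact permutation p of 0.25 (adjusted 0.312). Upstream members alone were higher than core promoter peaks by 0.10, 0.15 and 0.24 (mean 0.16 ± 0.071), again with an exact permutation p of 0.25 (adjusted 0.312). Among the more strongly bound optimal peaks, those above the median pooled signal, the difference from core promoter peaks was -0.017 (mean log2, exact permutation p = 1). Because these peaks were selected by the signal of the same libraries, this comparison can show little. Downstream members alone did not differ in a constant direction from distal peaks, with log2 differences of -0.05, 0.03 and 0.01 in replicates 1, 2 and 3 (exact permutation p = 1).

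**Figure D3:**
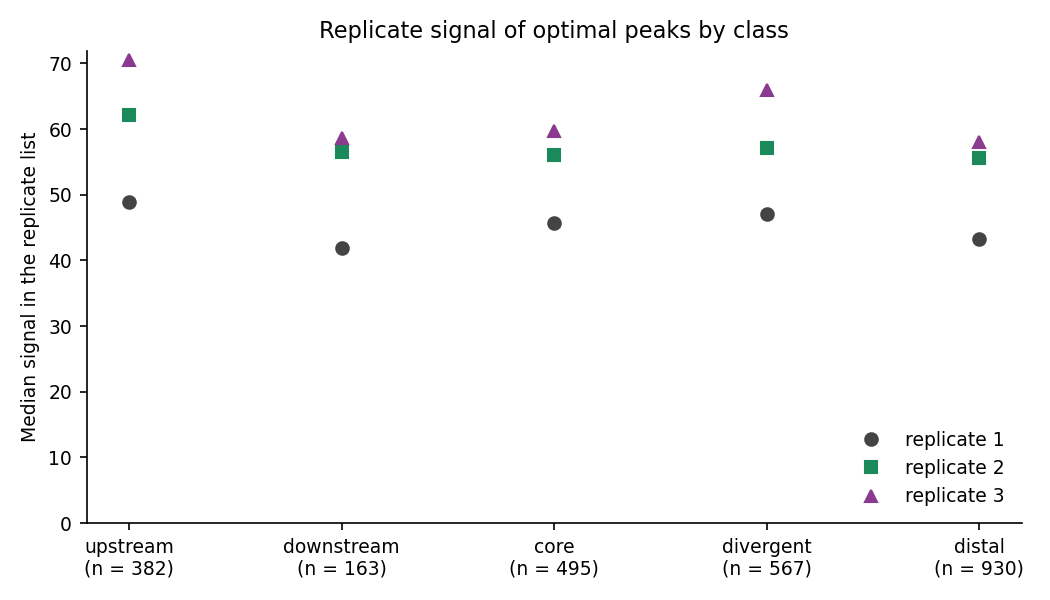
Median signal of optimal peaks in each replicate list, by class of peak, with 1 point per replicate and the number of peaks under each class. Upstream members have the highest median of the 5 classes in all 3 replicates, at 48.9, 62.2 and 70.5, against 41.9, 56.5 and 58.6 for downstream members.

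In the pooled list the median signal was 168.4 upstream, 156.1 downstream and 156.2 over all optimal peaks. The members ranged from 108.3 to 1243.5, and 86.6% of the upstream and 92.0% of the downstream ones had the full width of 424 bp.

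The member of highest signal lay 980 bp upstream of a TSS of Lk6, a kinase of the translation initiation factor eIF4E, in a first intron at chr3R:11760879-11761198. Its pooled signal was 1243.5. Replicates 1, 2 and 3 gave 361.4, 380.2 and 496.8, within the first 14 calls of each list. Next came a peak 480 bp upstream of ph-p, which encodes a subunit of Polycomb repressive complex 1, at chrX:2137179-2137523. It had a pooled signal of 1142 and replicate signals of 291.6, 391.4 and 472.2. The peak nearest CG1888, 222 bp upstream, followed with 1132 (325.4, 383.6 and 428.9 in the replicates).

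The other upstream members among the 10 highest were spread over genes of unlike function. The peak 314 bp upstream of larp, which encodes a La-related RNA-binding protein, had a pooled signal of 938.8. Those at Atf3, a bZIP transcription factor, and amon, a prohormone convertase, had 832.9 at 213 bp and 817.2 at 226 bp. Sox14, a SOX-family transcription factor, and Rtnl1, a reticulon that shapes the endoplasmic reticulum, had 714.7 at 245 bp and 667.4 at 267 bp. Sesn, a stress-induced sestrin, and aay, a phosphoserine phosphatase of serine synthesis, had 609.9 at 208 bp and 604.4 at 215 bp. Of these 10 summits, 7 lay between 208 and 267 bp from the TSS, next to the lower bound of the rule.

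The strongest downstream member lay 952 bp into CG9663, in its first intron at chr2L:3302014-3302314. Its pooled signal was 1119, and replicates 1, 2 and 3 gave 290.8, 386.5 and 437.7. It stood apart from the next downstream member, 934 bp into CG31635 (chr2L:6647104-6647310), which had 570.7 in the pool and 157.6, 206.1 and 206.6 in the replicates. The next were in first introns of mub, which encodes a KH-domain RNA-binding protein (932 bp, signal 510.2), and LPCAT, a lysophospholipid acyltransferase (694 bp, 502.6). They were followed by wde, a cofactor of the histone H3K9 methyltransferase Eggless (547 bp, 499.2), and CG31612 (455 bp, 408.5). The last of the 10 were wun, a lipid phosphate phosphatase known for guiding germ cells (400 bp, 398.3), CG18622 (202 bp, 393.0), Fem-1 (713 bp, 391.4) and the glutamine synthetase gene Gs2 (562 bp, 381.4). Only the CG18622 summit lay in a 5′ UTR, and the other 9 were in first introns.

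**Figure D4:**
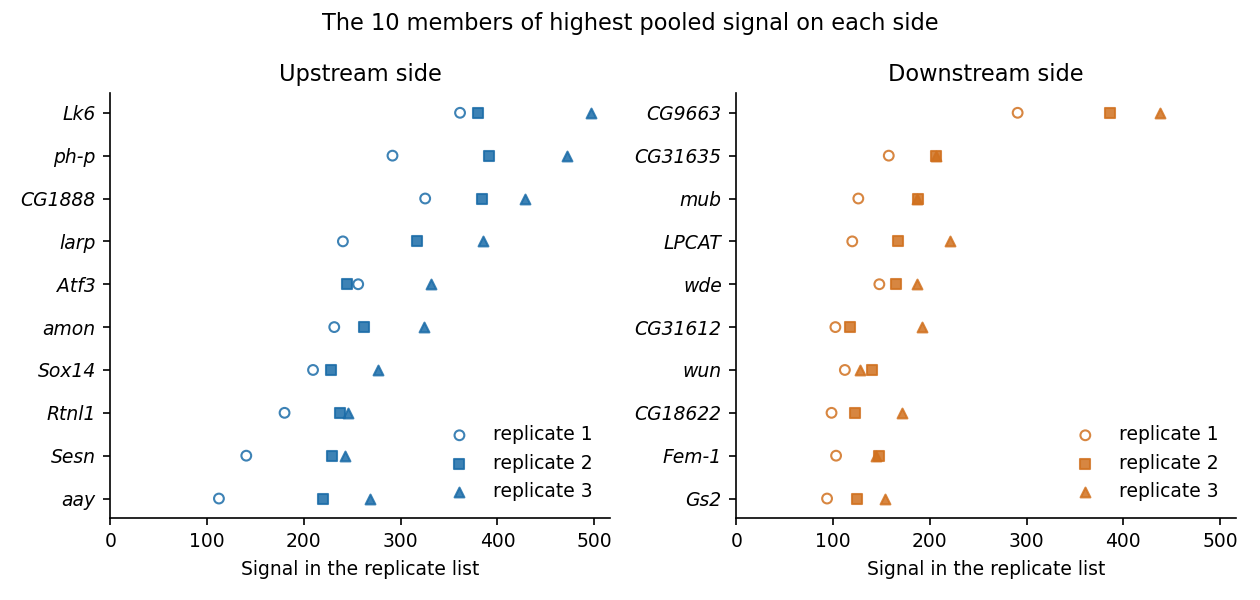
Signal in the 3 replicate lists (1 symbol each) for the 10 upstream (left) and 10 downstream (right) members of highest pooled signal, named by the gene of the nearest TSS. Lk6 runs from 361.4 to 496.8, and CG9663 stands apart downstream with 290.8 to 437.7, above CG31635 with 157.6 to 206.6.

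At the bounds of the rule, Rap1 (202 bp upstream, signal 136.1), CG18622 (202 bp downstream, 393.0) and eyg (203 bp upstream, 177.0) were just inside. Just outside the lower bound were px (199 bp, 1508), Abca3 (199 bp, 155.6) and Dh31-R (198 bp, 278.1), all upstream. At the upper bound, CG13501 (999 bp upstream, 155.6) and CG13917 (991 bp downstream, 232.5) were inside. Myd88 (1002 bp, 138.4), CG4733 (1002 bp, 118.3) and CG1142 (1003 bp, 134.2) were outside it.

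The 3 replicates recovered the members about as often as they recovered other optimal peaks. Among the 2537 highest calls of replicates 1, 2 and 3 were 76.3%, 85.0% and 85.3% of the members (mean 82.2% ± 5.09, SD, n = 3), where the shares over all optimal peaks were 77.0%, 82.1% and 83.4%. Upstream members were recovered at 78.5%, 85.1% and 88.0% in replicates 1, 2 and 3 (mean 83.9% ± 4.83, SD, n = 3). For downstream members the shares were 71.2%, 84.7% and 79.1% (mean 78.3% ± 6.79, SD, n = 3). The upstream share was thus the higher within each replicate, by little in replicate 2, and the difference was not tested. In all 3 replicates 332 of the 545 members were among these calls, and 5 were in none. Because these same libraries went into the optimal list, the recovery is no independent check.

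Summit positions were stable enough to keep most members in their class. The replicate's own summit placed 92.5%, 91.6% and 94.7% of the members on the same side of the same TSS within the same distance range (mean 92.9% ± 1.60, SD, n = 3). The median shift of the summit was 18, 13.5 and 12 bp. Of the upstream members that moved, most moved into the core promoter range, namely 22, 26 and 18 in replicates 1, 2 and 3. The rank order of signal was also alike between replicates, with Spearman's rho across members of 0.70 (replicates 1 and 2), 0.73 (1 and 3) and 0.72 (2 and 3). It was 0.73 to 0.76 among upstream and 0.60 to 0.62 among downstream members. Peaks share libraries and are not independent, so these are descriptions.

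The 545 members had 484 nearest genes, which is 3.47% of the 13945 protein-coding genes. Of these genes 319 (65.9%) had more than 1 annotated TSS, whereas 26.5% of all protein-coding genes did. The rule gives a gene with more TSSs more eligible bases, and this was not corrected for. A core promoter peak was also nearest to 57 of the 484 genes and a distal peak to 107, where over all 13945 genes these numbers were 483 and 672. At the TSS itself, a second optimal peak within 200 bp was found for 19 upstream members (4.97%) and 13 downstream members (7.98%). Most flanking peaks therefore stood alone at their TSS in the optimal list. Counting pooled candidates as well, the shares were 21.5% and 31.3%.

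There were 34 members whose interval overlapped that of another member, 32 upstream and 2 downstream, and such pairs share sequence. Some of these pairs also matched the same replicate call. Genes with 3 members were mrj (a DnaJ chaperone), ps (the splicing regulator pasilla), dnc (a cAMP phosphodiesterase), Rtnl1, CAP (an adaptor protein of the cytoskeleton) and Baldspot (a fatty acid elongase). In 5 of the 6 the members belonged to 3 different TSSs. At Rtnl1 all 3 were upstream, with pooled signals of 667.4, 384.1 and 122.0. At dnc all 3 were upstream too, with 507.3, 184.8 and 182.5. At Baldspot, 2 of the 3 overlapped and matched the same call in each replicate, so they are not separate observations there.

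At the gene of the tagged protein, the member lay 203 bp upstream of the eyg TSS, between genes, at chr3L:12468012-12468435. Its replicate signals were 63.6, 58.4 and 52.4, ranks 588, 1199 and 1684. The line carries a transgene of eyg, and if that construct holds this stretch, its reads and those of the gene itself cannot be told apart wherever this peak is counted. Poxm and ey, also Pax genes, had a member too, Poxm at 355 bp upstream (117.3) and ey, a master regulator of eye development, 751 bp upstream (113.0), so 3 of 10 Pax genes did. Over all protein-coding genes, 3.47% had a member. In the retinal determination list 3 of 13 genes had one, with dac, a nuclear cofactor of that network, at 551 bp upstream (146.6) beside eyg and ey. All of these were upstream and between genes. The dac peak had 22.5, 71.3 and 54.0 in replicates 1, 2 and 3 and the ey peak 21.4, 46.8 and 45.3, so both were weak in replicate 1.

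Among salivary gland genes, 3 of 12 had a member, beside 3.47% of all protein-coding genes. The strongest was at fkh, the forkhead factor of the salivary gland, 218 bp upstream at chr3R:28585270-28585693, with a pooled signal of 386.3 and replicate signals of 94.6, 140.0 and 153.6. The others were eyg and ps.

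Genes of signalling pathways had members on both sides, and the upstream share over all members was 70.1%. Of all protein-coding genes, 3.47% had a member. Genes with more TSSs have more eligible bases, and the list counts were neither corrected for this nor tested. Of 20 genes of the EGF receptor pathway, 4 had a member, all upstream. These were the ligand spi (228 bp, signal 422.8), the ETS repressor aop (854 bp, 170.7), the antagonist sty (852 bp, 164.2) and the ETS activator pnt (253 bp, 125.1). The spi peak had 119.4, 124.0 and 178.8 in replicates 1, 2 and 3. In the Dpp pathway 4 of 17 did, again all upstream, with the receptor wit (254 bp, 144.4), the signal transducer Mad (686 bp, 356.0), its cofactor shn (273 bp, 399.2) and the repressor brk (855 bp, 192.2).

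In the insulin and TOR list, the receptor gene InR had a member 652 bp upstream (417.0, with 100.2, 173.6 and 146.8 in the replicates) and the kinase gene Pi3K92E one 559 bp downstream (132.0). The Wingless list had 2 of 16, the kinase sgg on both sides (377.8 upstream and 139.6 downstream) and the co-receptor arr downstream (136.5). The Notch list had 2 of 17, the target repressor E(spl)m3-HLH (155.7) and the receptor N (112.0), both upstream. The JAK/STAT list had 1 of 9, the transcription factor Stat92E, with 2 downstream members (196.5 and 114.8). The Hedgehog list had 1 of 10, rdx, which encodes an adaptor for degradation of the effector Ci (322.4 upstream and 111.3 downstream). The Hippo list had 2 of 13, the target Diap1 downstream (305.5) and the cadherin ds upstream (153.3). These counts, too, stand beside 3.47% of all protein-coding genes.

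Among chromatin genes, 2 of 14 Polycomb group genes had a member, namely ph-p, with a second one downstream (165.7), and its neighbouring paralog ph-d (198.2 upstream). Of the insulator genes 2 of 14 did, BEAF-32 downstream (126.4) and the GAGA factor gene Trl upstream (113.2). Of the trithorax group genes 1 of 13 did, the chromatin remodeller kis (110.5 upstream). Neural genes had 2 of 15, the translational repressor brat (409.3) and elav, an RNA-binding protein of neurons, with 335.6 upstream and 285.4 downstream. Muscle genes had 2 of 15, the titin-like sls (191.9) and rols (134.6), which acts in myoblast fusion. The ecdysone list had 1 of 12 (Hr38, 118.6), the actin and tubulin list 1 of 14 (Act5C, with 2 overlapping peaks of 287.6 and 151.6) and the cell cycle list 1 of 17 (Cdk4, 154.6). Over all protein-coding genes the share was 3.47%.

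No member was nearest to any of the 8 Hox genes, 20 segmentation genes, 16 heat shock genes, 73 mitochondrial ribosomal genes, 32 proteasome genes, 179 chemosensory receptor genes or 70 Cpr cuticle genes. The same held for all 92 genes of cytoplasmic ribosomal proteins, although 61 of these were the nearest gene of a core promoter or divergent peak, as were 1033 of all 13945 protein-coding genes. For members, the share over all protein-coding genes was 3.47%, and the lists were not tested.

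Sequence at the summits was described by counting short motifs. The 12 motifs searched within 100 bp of the summit, on both strands, were the DRE TATCGATA (site of Dref), Motif 1 GGTCACACT (site of M1BP), the E box CAGCTGTT, the TATA box (spelled TATAAA), the homeodomain core (spelled TAATTA) and the GAGA element (spelled GAGAGAG, site of Trl). The others were the Zelda site (spelled CAGGTAG), the AP-1 site (spelled TGACTCA), the site of GATA factors (spelled AGATAAG), the site of ETS factors ACCGGAAGT, the Stat92E site TTCNNNGAA and the repeat CACACACA. All non-overlapping eligible windows of the same 201 bases, 39853 upstream and 49879 downstream, gave the background. These windows include coding exons, which held almost none of the members. No motif contains another, and the DRE, the homeodomain core and the pattern of the Stat92E site read the same on both strands.

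The DRE and Motif 1 were rare at the members. The DRE was at 0.785% of upstream (3 of 382) and 0 of 163 downstream summits, against 6.67% of core promoter summits, 0.665% of upstream windows and 0.285% of downstream windows. The exact interval of the downstream share reached 2.24%. Motif 1 was at 0.262% of upstream and none of the downstream summits, against 4.85% of core promoter summits. It was at 0.138% of upstream and 0.0662% of downstream windows. The E box was at 2.88% of upstream and 4.91% of downstream summits, against 6.87% of core promoter summits, 1.33% of upstream windows and 1.24% of downstream windows. The 3 members with a DRE were those at Hs3st-A, Sumo and ey, named after the counts were seen.

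The GAGA element was at 8.38% of upstream and 8.59% of downstream summits. It was at 3.26% of upstream windows and 2.31% of downstream windows, and at 7.48% of core promoter and 3.98% of distal summits. At the TSS of the upstream members, within 100 bp, it was found at 17.5% (64 of 366 TSSs), against 4.69% of all 19252 protein-coding TSSs. At the TSSs of downstream members the share was 8.64%. The TATA box was at 15.6% and 18.5% of the TSSs of upstream and downstream members, and at 26.9% of all TSSs. At the summits the order was the other way. The TATA box was at 31.15% of upstream and 25.8% of downstream summits, against 26.8% of upstream and 17.0% of downstream windows. It was also at 23.2% of core promoter, 32.45% of divergent and 28.2% of distal summits, so its frequency was not particular to the members. The repeat CACACACA was at 9.84% and 9.88% of the TSSs of upstream and downstream members, and at 4.0% of all TSSs.

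For 2 further motifs the shares on the sides were unlike, but they rest on few peaks and their intervals overlap. The repeat CACACACA was at 3.40% of upstream and 9.20% of downstream summits (exact intervals 1.82% to 5.75% and 5.24% to 14.7%), against 3.51% of upstream and 3.95% of downstream windows. The GATA site was at 4.71% of upstream and 1.84% of downstream summits (2.82% to 7.35% and 0.381% to 5.28%). The homeodomain core was at 11.8% of upstream and 12.9% of downstream summits, with 15.1% and 8.99% of the windows of the upstream and downstream side. Members were richer in A and T than the eligible windows as a whole, which downstream include much coding exon, with a median GC content of 36.3% upstream and 40.3% downstream, against 39.8% and 45.8% of the windows on the same side.

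**Figure D5:**
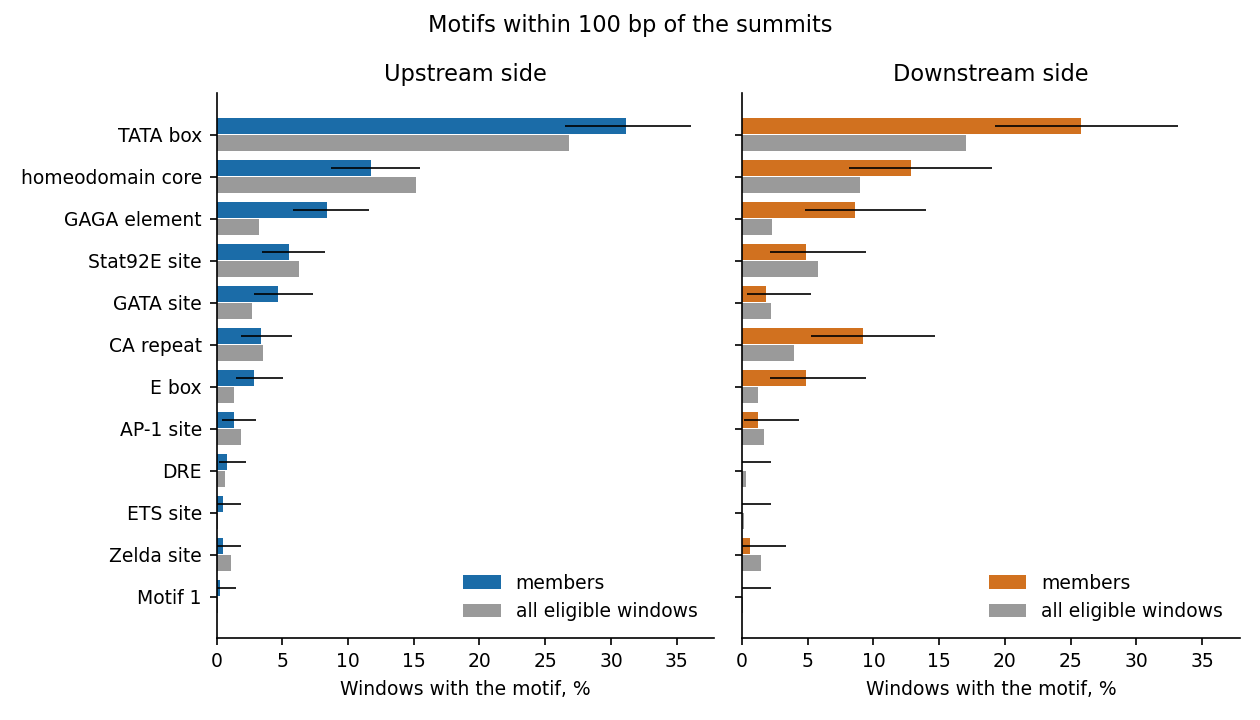
Share of member windows (blue for upstream on the left, orange for downstream on the right, with 95% exact binomial intervals) and of all eligible windows (grey) that hold each of the 12 motifs, by name. The GAGA element is at 8.38% of upstream and 8.59% of downstream members, above 3.26% and 2.31% of windows, and the DRE and Motif 1 are near 0.

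A count of all 8192 words of 7 letters, with both strands joined, gave the same leading word on both sides. Among words in at least 5% of the member windows, ACAGTGG had the highest ratio to the eligible windows. It was in 9.42% of upstream windows (36 of 382) and 2.41% of eligible upstream windows, a ratio of 3.92. Downstream, it was in 15.95% of member windows (26 of 163) and 2.57% of eligible windows, a ratio of 6.21. Coding exons, which held almost no members, make up 13.5% of upstream and 47.6% of downstream eligible bases. The ratios of the sides therefore rest on unlike backgrounds. The word was chosen for these counts and carries no test. The sequences printed above show it at Lk6, eyg, Rtnl1, fkh, CG1737 and Hgsnat.

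The word was found in the other classes of peak too. It was at 6.87% of core promoter, 5.47% of divergent and 10.1% of distal optimal summits. Among candidates outside the optimal list it was at 4.83% upstream and 3.60% downstream. It was more frequent where the signal was higher, at 17.6% of the 182 members of highest pooled signal, 10.4% of the next 182 and 6.08% of the last 181. The base before the word was G in 1.47% of 68 occurrences at members and in 20.1% of those in eligible windows, and the base before that was G in 60.3% and 35.5%. Over the 243 occurrences at all optimal peaks these shares were 6.58% and 60.1%, so the pattern was not particular to the members. Several other leading words, such as CACAGTG and CACTGTA, overlap this one in their letters, so they are not separate findings. Further leading words did not overlap it, such as AAGGGGG downstream (ratio 5.51) and GGGTATA upstream (ratio 3.10).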

How the data were processed

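ChIP-seq of eyg-GFP was analysed in 3 biological replicates of 1 group of whole embryos. Per the deposited listings, the authors called regions on each replicate and on the pool against a control alignment, and derived the optimal list by the irreproducible discovery rate, which compares ranks between replicates. Aligner, peak caller and thresholds: not given in the sources used here. The deposited lists give a signal value per region (scale not stated) and the authors' −log10 q-value, which served only as a description. No read counts are given, so depth is unknown and no interval was formed for the signal of 1 region. The dm3 lists were not used here.

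Summits on dm6 were placed against protein-coding TSSs of Ensembl release 115 (BDGP release 6.54, transposable elements excluded) on 6 arms. Coordinates are 1-based. Eligible bases are all bases of these arms that the rule accepts. An optimal peak was matched to the replicate call that held its summit, the one of highest signal if several did. More than 1 optimal peak can match the same call, which then enters the medians more than once. Shares have 95% exact binomial intervals (scipy 1.17.1), which cover counting error only. Signal medians were compared within each replicate by a two-sided exact sign-flip permutation test, of which upstream against core and downstream against distal were added later. Peaks are not replicates, so no test runs over peaks. The code was checked on simulated data with known answers.

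Named genes are eyg, the 10 members of highest pooled signal per side, up to 4 per gene list by signal, the 3 peaks next to each bound, genes with 3 or more members, and members whose sequence is printed. Some of the genes and sequences this rule selects are left out here. The 27 gene lists held 758 entries, of which 755 matched, 3 of them through a RefSeq synonym. The members, lists and motifs were chosen with earlier results of these data known. Alternatives covered the TSS set, the position, both bounds, divergent pairs, strength, width, overlap, list length, the motif window and leaving out each replicate.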

Additional observations from a re-analysis of the deposited data

How the results depend on the processing

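Of 100 alternatives to the values above, 82 kept the result. For signal differences this means the same direction only, because the test cannot pass its threshold in any of them. For other values it means a move within the spread between replicates or the exact interval, and for counts one within 1.5 times. The upstream share was 56.4% with only the 5′ end of each gene as TSS, 74.4% with a lower bound of 100 bp, 62.7% with 300 bp and 82.8% with an upper bound of 500 bp. It ran from 72.1% to 74.0% without 1 replicate. Members numbered 302 with the upper bound of 500 bp, 296 among the more strongly bound optimal peaks, and 365 to 402 without 1 replicate, where a member had to be among the highest calls of both others. The share kept by replicate summits was 88.3% with the upper bound of 500 bp and 87.8% with 50% reciprocal overlap. The share among the highest calls was 97.6% for the more strongly bound peaks, 54.4% with a list 0.5 times as long and 95.2% with one 2 times as long. The more strongly bound peaks were selected by the pooled signal of the same libraries. Among them, the difference between members and core promoter peaks turned to -0.017 (log2, exact permutation p = 1), and the cause was not tested. Elsewhere it kept its sign but moved by more than its spread in places, to 0.18 with the lower bound at 100 bp and 0.041 at 300 bp. Candidates reached the optimal list in 20.1% of cases upstream and 7.86% downstream by overlap, and upstream in 19.8% and 14.7% with lower bounds of 100 and 300 bp. Motifs at least 1.5 times as frequent as in eligible windows numbered 5 upstream, and 3 among the more strongly bound peaks. Of the 5, the ETS site rests on 2 of 382 summits and Motif 1 on 1. The signal difference between sides kept its direction in all 13 of its alternatives (0.14 to 0.25), and that from distal peaks did too (0.066 with full-width peaks to 0.16 with the upper bound of 500 bp). No paired analysis was possible because the study has only 1 group, so no groups share replicate numbers. Classes of peak were compared within each replicate.

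Read depth is unknown, and no limit on weak binding was set. With 3 replicates the exact sign-flip test cannot pass a threshold of 0.05. The side of a peak depends on the TSS annotation and, near the lower bound, on summit shifts of 12 to 18 bp.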

Other observations

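On the small chromosome 4, members made up 4 of the 11 optimal peaks, and all 4 were upstream. They made up 122 of 488 optimal peaks on 2R, 105 of 430 on X, 95 of 470 on 2L, 120 of 616 on 3R and 99 of 522 on 3L.

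A TSS of a non-coding gene lay within 200 bp of 8 upstream members (2.09%) and 3 downstream members (1.84%), against 2.29% of upstream and 1.11% of downstream eligible bases. The peak interval reached the TSS itself at 17 upstream members and 1 downstream member.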
